A study of Schizosaccharomyces pombe with 2 samples.

Results

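Replication origins around 9 genes on chromosome I of the fission yeast Schizosaccharomyces pombe took up less BrdU in sap1-1 than in wild-type. Mean log2 differences over the origins were -1.44, -1.61 and -1.39. At 2 of 3 places no BrdU-enriched region was called in sap1-1. The same held for 6 of 163 wild-type arm regions of at least 5 kb, these 2 included. The places are 3 windows of the left arm, in the numbering of the array's tile names. The first runs from 2320000 to 2358000 (38 kb) and holds neo1, mug68 and nas6. The second runs from 2385000 to 2415000 (30 kb) and holds glm1, seh1, nxt2 and sck1. The third runs from 638000 to 663000 (25 kb) and holds csk1 and pis1. They are called the mug68, seh1-sck1 and csk1-pis1 windows here. The windows and genes were chosen on the measured difference between the arrays, so that the low values in sap1-1 are how they were found and are given as a description, with no test. They hold 312 of 41240 chromosome tiles (127, 101 and 84), and the 9 genes are among 4617 protein-coding genes with at least 3 tiles. The mug68 and seh1-sck1 windows lie 27 kb apart, and their wild-type summits 64.8 kb apart.

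In hydroxyurea, which starves cells of deoxynucleotides, forks move little from where they started, and the thymidine analogue BrdU marks DNA made near origins that fired. Fission yeast origins lie mostly in AT-rich gaps between genes, where the origin recognition complex binds runs of A and T through AT-hooks of its Orc4 subunit, and each origin fires in only part of the cells. Sap1 binds DNA, is needed for growth, and is known for its sites in the rDNA, at the mating-type locus and in LTRs (the repeats of retrotransposons). A gene's value here is the BrdU in its DNA, not its expression.

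There were 2 samples, 1 wild-type for sap1 (cdc10-v50) and 1 with the mutation (cdc10-v50 sap1-1), both in strain background 972h. Both strains also carried Pnmt1-TK, a thymidine kinase driven by the nmt1 promoter, and Padh1-hENT, a nucleoside transporter driven by the adh1 promoter, which let cells take up and use BrdU. Cultures grown at 26 °C were arrested through cdc10-v50 by 4 h at 35 °C, and then returned to 26 °C with 10 mM hydroxyurea and 200 µM BrdU, and 0.1% sodium azide stopped them. DNA pulled down with an antibody to BrdU (Cy5) and input DNA from whole-cell extract (Cy3) shared 1 tiling array per strain. With 1 array per strain there is no replicate and no test. Culture, pulldown and array cannot be told apart from genotype, and neither can fewer cells firing an origin from less BrdU in each cell.

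Values are log2 of Cy5 over Cy3 signal, centred on the median of the array, so 0 is the median tile and 1 is 2-fold above it. Every SE is over tiles. Neighbouring tiles share DNA fragments, so it covers scatter within these 2 arrays only. The arrays also differed in roughness. Between neighbouring tiles the values had an SD of 0.60 in wild-type against 1.02 in sap1-1 over the genome, and of 0.63 and 1.20 in the 3 windows. The part of this roughness in the differences below was not tested.

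Gaps between genes that were high in wild-type are shown first, 3 from the mug68 region and 1 from each of the other regions, because the wild-type summits lie in or near them. The arc5-med20 gap of the mug68 window is shown beside them as one that was higher in sap1-1. Each line gives the AT-richest 300 bases of the gap on the plus strand, from RefSeq assembly ASM294v3 of chromosome I, whose numbering is not that of the tiles. Capitals mark runs of at least 6 A or at least 6 T.
neo1-mug68 gap (chrI:2335713-2336012): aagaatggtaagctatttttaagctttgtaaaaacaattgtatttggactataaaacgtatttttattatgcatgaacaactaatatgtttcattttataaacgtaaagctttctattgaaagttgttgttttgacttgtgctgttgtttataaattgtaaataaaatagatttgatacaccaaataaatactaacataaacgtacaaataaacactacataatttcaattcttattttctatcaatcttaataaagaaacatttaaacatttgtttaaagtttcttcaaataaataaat
mug68-nas6 gap (chrI:2337785-2338084): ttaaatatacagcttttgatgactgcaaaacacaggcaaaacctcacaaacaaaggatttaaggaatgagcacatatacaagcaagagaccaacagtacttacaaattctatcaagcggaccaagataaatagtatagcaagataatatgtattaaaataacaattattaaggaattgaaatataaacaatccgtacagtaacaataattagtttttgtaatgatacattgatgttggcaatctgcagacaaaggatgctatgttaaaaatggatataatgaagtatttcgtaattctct
nas6-rpp40 gap (chrI:2339338-2339637): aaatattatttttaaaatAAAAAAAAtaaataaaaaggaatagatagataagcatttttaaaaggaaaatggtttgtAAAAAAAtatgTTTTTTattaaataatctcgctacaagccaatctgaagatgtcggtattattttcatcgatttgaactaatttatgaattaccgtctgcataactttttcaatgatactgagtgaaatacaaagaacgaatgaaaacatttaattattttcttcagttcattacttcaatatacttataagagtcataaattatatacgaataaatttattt
glm1-seh1 gap (chrI:2398670-2398969): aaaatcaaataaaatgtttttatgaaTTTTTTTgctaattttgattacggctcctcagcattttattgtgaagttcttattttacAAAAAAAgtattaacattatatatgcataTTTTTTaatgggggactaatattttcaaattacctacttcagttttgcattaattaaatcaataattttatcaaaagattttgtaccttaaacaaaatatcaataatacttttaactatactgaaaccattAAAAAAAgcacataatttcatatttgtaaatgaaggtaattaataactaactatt
csk1-pis1 gap (chrI:649924-650223): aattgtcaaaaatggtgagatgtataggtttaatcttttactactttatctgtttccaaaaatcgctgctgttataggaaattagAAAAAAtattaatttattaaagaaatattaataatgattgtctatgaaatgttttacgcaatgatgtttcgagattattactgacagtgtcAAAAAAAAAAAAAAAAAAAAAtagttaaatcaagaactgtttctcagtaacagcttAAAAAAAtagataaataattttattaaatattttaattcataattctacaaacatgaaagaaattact
arc5-med20 gap (chrI:2349385-2349684): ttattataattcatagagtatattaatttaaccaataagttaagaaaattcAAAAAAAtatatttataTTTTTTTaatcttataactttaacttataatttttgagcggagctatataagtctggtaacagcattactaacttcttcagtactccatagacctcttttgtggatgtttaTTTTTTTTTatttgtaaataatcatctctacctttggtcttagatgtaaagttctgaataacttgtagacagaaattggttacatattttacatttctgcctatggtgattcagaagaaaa

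The neo1-mug68 gap, 518 bp between genes that diverge from it, held the summit of the mug68 window. Its 2 tiles read 2.74 and 2.57 in wild-type against 2.13 and 2.35 in sap1-1, so all 4 values were high. The mug68-nas6 gap (351 bp, same direction) had 2 tiles at 2.21 and 1.87 in wild-type against 1.77 and 1.34 in sap1-1, which were likewise high in both strains. The 484 bp between nas6 and rpp40, which run in the same direction, had 1 tile at 2.02 in wild-type against -1.18 in sap1-1. The glm1-seh1 gap (1220 bp, divergent) had 4 tiles at 2.34, 1.78, 1.96 and 1.34 in wild-type and at 0.50, -0.65, -1.92 and -1.28 in sap1-1. Each wild-type tile of that gap was above each sap1-1 tile. The csk1-pis1 gap (907 bp, divergent) had 3 tiles at 1.94, 2.42 and 1.39 in wild-type and at 0.05, 1.36 and -1.16 in sap1-1. In the arc5-med20 gap (868 bp, divergent) the 3 tiles read 0.75, 0.98 and 0.62 in wild-type against 0.49, 2.33 and 2.05 in sap1-1, the opposite order at the latter 2.

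The stretches did not share 1 level of A and T. AT content was 78.7% at neo1-mug68, nas6-rpp40 and csk1-pis1, 79.3% at glm1-seh1, 75.3% at arc5-med20 and 70.3% at mug68-nas6. Over 2312 gaps searched the same way the median was 73% (quartiles 70.7% and 75.7%). The neo1-mug68 and mug68-nas6 stretches held 0 runs of 6, nas6-rpp40 held 3, glm1-seh1 held 4, csk1-pis1 held 3 with the longest at 21 bases, and arc5-med20 held 3. Of all 2312 stretches 80.4% held such a run. The word TAACG, found in Sap1 binding sites, was searched on both strands (as TAACG or CGTTA). It was in 0 of the 6 stretches shown and in 36.6% of all 2312. Such matches describe letters in stretches picked for display, and nothing is read from them. No LTR or tRNA gene is annotated inside the windows. The nearest LTR lies 79.5 kb from the mug68 summit, 14.7 kb from the seh1-sck1 summit and 19.5 kb from the csk1-pis1 summit, and the nearest tRNA gene 86.7, 32.3 and 52.8 kb away.

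The mug68 origin had the longest called wild-type region of the 3 and was the one that kept a core in sap1-1. A BrdU-enriched region is a run of at least 3 tiles whose mean over 500 bp either side is at least 1. The wild-type region ran from 2332200 to 2345399 (13.2 kb, 44 tiles), from neo1 through mug68, nas6, rpp40 and trl1 up to urh2. Its mean log2 ratio was 1.65 in wild-type against 0.22 in sap1-1, a difference of -1.44 ± 0.13 (SE). Of its 44 tiles 43 were lower in sap1-1, beside 55.8% of all tiles. The tiles of each region were picked as high in wild-type, unlike all tiles, so nothing is read from such counts. In other regions called this way, 63 of 70 tiles were lower between fap2 and ssd2, and 8 of 21 between vps26 and sym1. The smoothed summit, between neo1 and mug68, stood at 2.62 in wild-type against 2.20 in sap1-1.

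In sap1-1 a region of 2.7 kb (2336400 to 2339099, 9 tiles) was left, which covered that gap, mug68 and the gap up to nas6. Over these 9 tiles the mean was 2.08 in wild-type against 1.48 in sap1-1 (-0.60 ± 0.07). Over the other 35 tiles of the wild-type region it was 1.54 in wild-type against -0.11 in sap1-1 (-1.65 ± 0.14). This split follows where sap1-1 itself passed the threshold, so the smaller difference of the 9 tiles is part of how they were picked. Of the other 35 tiles 34 were lower in sap1-1. The exception, in the trl1-urh2 gap, read 0.95 in wild-type against 1.10 in sap1-1. The neighbouring tile of that gap read 1.95 in wild-type against 0.64 in sap1-1. In a 3 kb running mean the stretch above 0 around the summit was 21.6 kb long in wild-type and 5.1 kb in sap1-1. The stretch at or above 1 was 12 kb long in wild-type, and in sap1-1 the running mean at the summit was 0.83. A second, short wild-type region of the window, between bur6 and wip1 (2348100 to 2349299, 4 tiles), was at 0.61 in sap1-1 and differed by -0.89 ± 0.36.

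At seh1-sck1 the wild-type region was 6 kb long (2397000 to 2402999, 20 tiles) and no region was called in sap1-1. The mean was 1.48 in wild-type against -0.14 in sap1-1, a difference of -1.61 ± 0.27. Of the 20 tiles, again picked as high in wild-type, 18 were lower (55.8% of all tiles). The wild-type summit lay in nxt2 at a smoothed 2.24, where sap1-1 read 0.77, and the glm1-seh1 gap formed a second hump. In wild-type the 3 kb running mean stayed above 0 over 69.3 kb (2388900 to 2458199), well past the right edge of the window. That stretch takes in a separate wild-type region, between cpc2 and meu26 (2437200 to 2447399), so it is not the length of this origin. In sap1-1 it was -0.24 at the summit itself.

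The csk1-pis1 region was 5.7 kb long in wild-type (647700 to 653399, 19 tiles) and had no counterpart in sap1-1. Its mean was 1.41 in wild-type against 0.01 in sap1-1, a difference of -1.39 ± 0.18. All 19 tiles, again picked as high in wild-type, were lower (55.8% of all tiles). With within-array loess the difference was -0.92, under 2-fold. At the wild-type summit, between csk1 and pis1, the smoothed value was 1.95 in wild-type against -0.16 in sap1-1. The running mean was above 0 over 10.8 kb in wild-type and was -0.21 at the summit in sap1-1.

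**Figure D1:**
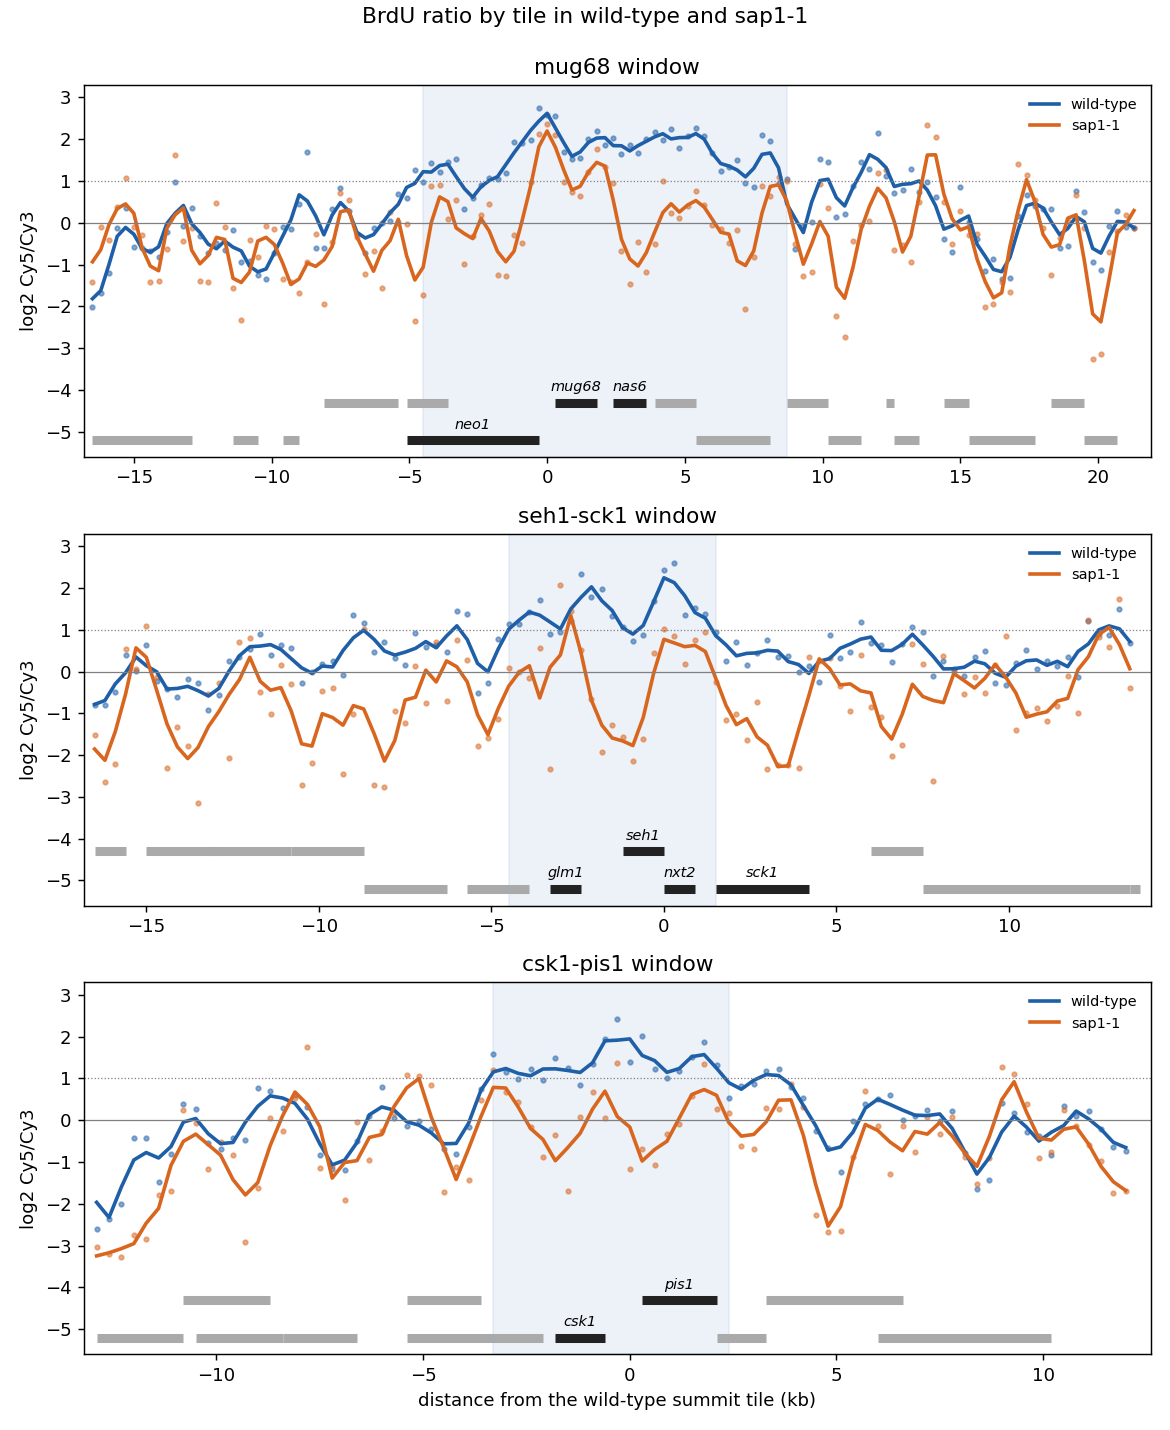
Log2 Cy5/Cy3 of each tile (points) and its mean over 500 bp either side (lines) in wild-type (blue) and sap1-1 (orange) against distance from the wild-type summit in kb, with protein-coding genes as bars (upper row plus strand, lower row minus strand, black for the 9 genes) and the wild-type region shaded. The orange line lies below the blue one at the mug68 summit (2.20 against 2.62) and at the csk1-pis1 summit (-0.16 against 1.95).

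The difference lay in the immunoprecipitated DNA and not in the input. Over the mug68 region the median Cy5 intensity was 1982 in wild-type against 1056 in sap1-1, over seh1-sck1 2367 and 808, and over csk1-pis1 2175 and 991. All 3 were lower in sap1-1. On the log2 scale, with each channel centred on its median, Cy5 differed by -1.45 ± 0.14, -1.61 ± 0.25 and -1.43 ± 0.16. Cy3 differed by -0.01 ± 0.04, 0.01 ± 0.04 and -0.03 ± 0.06 over the same tiles. No tile of the windows was under the scanner's limit of well above background in either channel. After subtraction of the running median by GC content of the tile, the ratios differed by -1.45, -1.64 and -1.43.

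**Figure D2:**
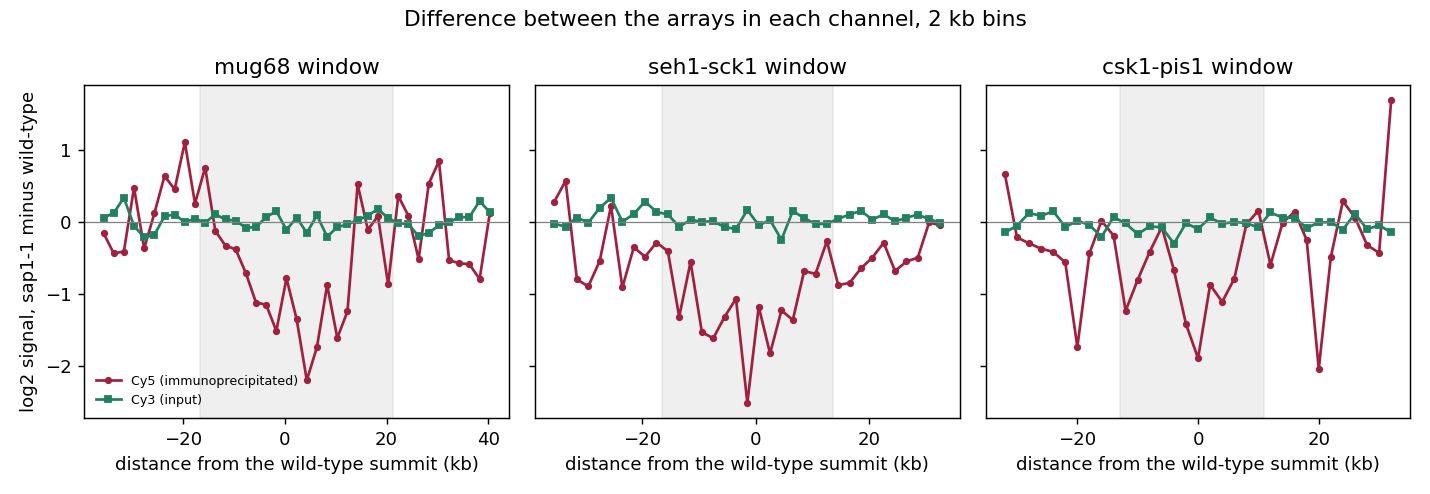
Mean difference, sap1-1 minus wild-type, of log2 Cy5 (circles) and log2 Cy3 (squares) signal in 2 kb bins of the 3 windows (grey) and 20 kb either side, against distance from the wild-type summit in kb. Inside the windows the lowest Cy5 bins read -2.21, -2.52 and -1.90, while Cy3 stayed between -0.30 and 0.18.

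Within the windows the low values were not even, and the windows' edges differed. In 5 kb bins, 6 of 8 were lower in sap1-1 at mug68, 7 of 7 at seh1-sck1 and 6 of 6 at csk1-pis1. Of these 4, 5 and 1 were lower by at least 1. The last bin of a window was shorter, and at seh1-sck1 (-1.08) and csk1-pis1 (-0.96) it held only 1 tile. The lowest mug68 bin, 2340000 to 2344999 over rpp40 and trl1, read 1.76 in wild-type against -0.08 in sap1-1. The lowest seh1-sck1 bin, 2400000 to 2404999 over seh1, nxt2 and sck1, read 1.09 and -0.69, and the lowest csk1-pis1 bin, 648000 to 652999, read 1.40 and -0.07. Outside the longest wild-type region of each, the windows differed by -0.45 ± 0.11 (mug68), -1.07 ± 0.11 (seh1-sck1) and -0.51 ± 0.11 (csk1-pis1). The mug68 value takes in the short region between bur6 and wip1.

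The 20 kb on either side differed less than the regions. At mug68 the left one differed by 0.15 ± 0.12 and the right one by -0.09 ± 0.12, and at csk1-pis1 by -0.35 ± 0.14 and -0.21 ± 0.15. The flanks of seh1-sck1 differed by -0.41 ± 0.12 on the left and by -0.55 ± 0.09 on the right, where wild-type was still at 0.65 and sap1-1 at 0.10. The 89 tiles between the mug68 and seh1-sck1 windows were low in both strains (-0.88 in wild-type against -1.12 in sap1-1). At the edges that the choice of windows set, the difference over 2 kb just inside and just outside was 0.77 and 0.21 on the left of mug68 and -0.78 and 0.44 on its right. At seh1-sck1 the left edge gave -0.51 and -0.42 and the right edge -0.36 and -0.89, so that lower values ran on past that edge. At csk1-pis1 the left edge gave -1.21 and -0.25 and the right edge -0.56 and -0.23.

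Of the 312 tiles 137 (43.9%) were lower in sap1-1 by at least 1, beside 17.1% of all tiles. This contrast chose the windows, so nothing is read from the count. Tiles in genes and tiles between genes did not share 1 order. In the mug68 region the difference was -0.88 ± 0.42 between genes and -1.54 ± 0.13 in coding genes. It was -1.83 ± 0.40 and -1.47 ± 0.37 at seh1-sck1, and -1.83 ± 0.30 and -1.28 ± 0.21 at csk1-pis1. The means between genes rest on only 7, 8 and 4 tiles, and at seh1-sck1 the ranges given by the SEs overlap. At mug68 these tiles include the neo1-mug68 and mug68-nas6 gaps, which were high in both strains.

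Of all 4617 genes 2749 had a lower mean in sap1-1, and 8.88% were lower by at least 1. All of the 9 genes had a lower mean in sap1-1, 7 of them by at least 1. These means also belong to the contrast that chose the genes. Their median difference was -1.52, and that of all genes -0.14. In the mug68 window, neo1 encodes a flippase that moves phospholipids across membranes. Its 16 tiles ran from 0.33 to 1.99 in wild-type and from -2.35 to 0.97 in sap1-1, with means of 1.22 in wild-type against -0.29 in sap1-1 (-1.51 ± 0.24), lower at all 16. Of those tiles 5 are shared with meu43, which lies on the other strand. mug68, a gene known for its rise in meiosis, read 2.55, 1.69, 1.52, 1.56 and 2.01 in wild-type against 2.11, 0.97, 0.74, 0.65 and 1.23 in sap1-1. The sets of 5 overlap, and the means, 1.87 and 1.14, differed by -0.73 ± 0.08. Of the 40 genes of the windows with at least 3 tiles, mug68 was the only one at or above 1 in sap1-1, against 11 in wild-type. Of all 4617 genes 643 were at or above 1 in sap1-1 and 870 in wild-type.

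nas6 encodes gankyrin, an assembly chaperone of the proteasome in budding yeast. It read 2.04, 1.64, 1.85 and 1.67 in wild-type against 0.96, -0.67, -1.47 and -0.45 in sap1-1. The means were 1.80 and -0.41, a difference of -2.21 ± 0.46 (4.62-fold lower).

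In the seh1-sck1 window, seh1 encodes a WD-repeat protein of the SEACAT (GATOR2) complex, which acts in nutrient signalling to TORC1. It read 1.08, 0.74, 0.87 and 1.70 in wild-type against -1.57, -2.13, -1.61 and 0.45 in sap1-1. Its means of 1.10 and -1.22 differed by -2.31 ± 0.36 (4.97-fold lower). This was the lowest difference of the 9 genes and number 9 from the lowest of all 4617. nxt2, annotated as a nuclear import protein, read 2.44, 2.60 and 1.35 in wild-type against 1.02, 0.84 and 0.19 in sap1-1 (-1.44 ± 0.17). sck1, which encodes a kinase of the S6 kinase family, lay beside the region, from -0.00 to 0.94 in wild-type and from -2.34 to -0.26 in sap1-1. Its 9 tiles averaged 0.44 and -1.55, a difference of -1.99 ± 0.23, so a gene at moderate wild-type signal was among the lowest.

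glm1, the gene of a glomulin-family protein, was the one member without a steady direction. Its 3 tiles read 0.90, 0.93 and 1.22 in wild-type against -2.33, 2.06 and 1.46 in sap1-1. Only 1 of 3 was lower in sap1-1, and the mean difference of -0.62 ± 1.33 turns to 0.24 with medians over tiles. The high sap1-1 tiles of glm1 stand next to the low ones of the glm1-seh1 gap given above.

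In the csk1-pis1 window, csk1 encodes a CDK-activating kinase. It read 1.48, 1.24, 0.85 and 1.34 in wild-type against -0.35, -1.69, 0.07 and 0.68 in sap1-1. The means were 1.23 and -0.32 (-1.55 ± 0.53). pis1 encodes the synthase of phosphatidylinositol, a membrane lipid. Its 6 tiles read 2.03, 1.24, 1.02, 1.18, 1.51 and 1.87 in wild-type against -0.69, -1.08, -0.34, -0.09, 0.59 and 1.35 in sap1-1. The sets overlap at the highest sap1-1 tile, and the means of 1.47 and -0.04 differed by -1.52 ± 0.34.

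The other 31 genes with at least 3 tiles differed by -1.94 to 0.27. Of these 28 were below 0 and 12 lower by at least 1, beside 2749 and 410 of all 4617 genes. The lowest was bur6, the gene of a transcription repressor subunit (0.67 in wild-type against -1.27 in sap1-1). Next to the mug68 core, rpp40 (a subunit of RNase P) read 2.05 in wild-type against 0.25 in sap1-1, and trl1 (tRNA ligase) 1.56 against -0.19. The genes above 0 were msa1 (0.27), med20 (0.17) and cct2 (0.13), each below 0 in wild-type, and all of them turn below 0 when arrays are centred on the mode. A pair of genes with fewer tiles, SPAC6C3.03C (2 tiles, -1.24) and wip1 (1 tile, 0.14), were left out of these counts. By window, 8 of 16 genes at mug68, 8 of 13 at seh1-sck1 and 3 of 11 at csk1-pis1 were lower by at least 1. Genes that cross a window's edge enter with all their tiles.

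**Figure D3:**
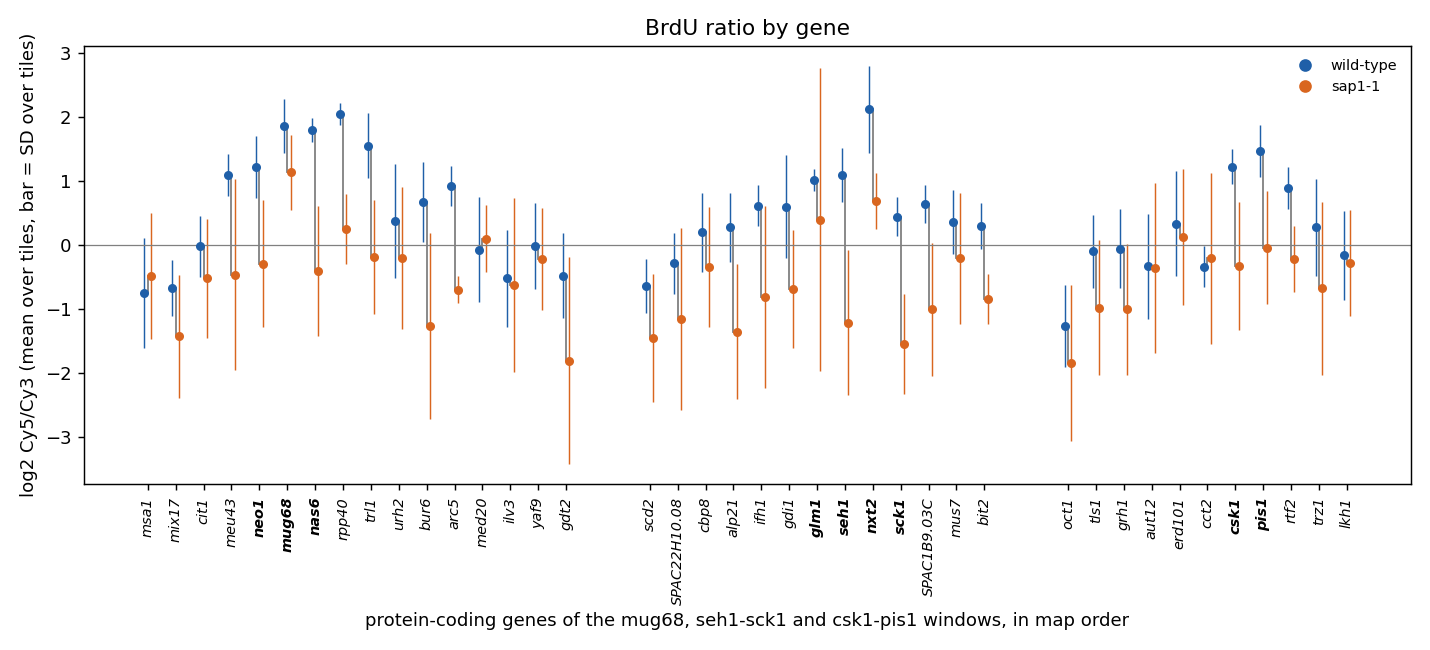
Mean log2 Cy5/Cy3 over the tiles of each of 40 protein-coding genes in map order, in wild-type (blue) and sap1-1 (orange), with the SD over tiles as bars and the 9 genes in bold. mug68 keeps a sap1-1 mean of 1.14, while nas6 beside it reads -0.41 and seh1 -1.22.

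Among genes outside the windows and their 20 kb flanks, those whose wild-type and sap1-1 means lay nearest to the means of mug68 (by Euclidean distance over the 2 arrays) were miy1 (1.86 and 1.14), SPAC4H3.06 (1.85 and 1.11) and erv1 (1.87 and 1.18), all on chromosome I. Their distances were 0.005, 0.033 and 0.043.

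Set beside other origins, the 3 regions were the lowest 3 of 163 wild-type regions of at least 5 kb on chromosome arms, which is how they were chosen. Of the 163, 6 (3.68%) were lower by at least 1 and 0 were higher by as much. Regions with no overlapping sap1-1 region were 6 of the 163, the seh1-sck1 and csk1-pis1 regions among them. A missing call did not always mean low signal at the wild-type summit. There the smoothed sap1-1 value was 2.24 beside leu2, 1.48 between tgs1 and wss1 and 1.38 in fml1. It was 0.77 at seh1-sck1, -0.16 at csk1-pis1 and 0.57 in nab3. Over the genome 472 regions were called in wild-type and 681 in sap1-1. The median region of the 163 stood at 1.66 in wild-type against 1.37 in sap1-1. The median difference was -0.36 (quartiles -0.54 and -0.17), with 142 of 163 below 0. All 163 were called on the wild-type array alone, so a lower mean in sap1-1 is partly how they were picked. No general loss of origin signal is read from it. Just after the 3 came the regions between erm1 and rpa12 on chromosome III (-1.19 ± 0.16), beside leu2 on chromosome I (-1.07 ± 0.21) and at nab3 on chromosome I, where the means were 1.23 in wild-type against 0.22 in sap1-1. The wild-type means of the mug68, seh1-sck1 and csk1-pis1 regions, 1.65, 1.48 and 1.41, lay inside the range of the 163 (1.16 to 2.30), and the seh1-sck1 region was the only one with a sap1-1 mean below 0.

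Neighbouring origins varied. Within 150 kb of the mug68 and seh1-sck1 windows, the wild-type region between vps26 and sym1 (2277000 to 2283299) read 1.45 in wild-type against 1.57 in sap1-1, and the one between cpc2 and meu26 (2437200 to 2447399) read 1.63 and 1.41. The short region between ltc2 and sec73 (2488200 to 2490899) read 1.52 and 0.46 over 9 tiles. Its smoothed summit was nearly the same, at 2.12 in wild-type and 2.07 in sap1-1. Near csk1-pis1, the nab3 region (607200 to 612599) read 1.23 and 0.22, while that at sxa2 (709800 to 722099) read 1.93 and 1.62. Low and little changed origins thus lay side by side. Of the well known origin loci, hus5 beside ars1 read 1.91 in wild-type against 2.05 in sap1-1, and the 4 tiles of ura4 0.60 and 0.80. With 5 kb either side, hus5 read 1.15 in wild-type against 1.31 in sap1-1, while ura4 read 0.48 and 0.39. Both genes, and the region between vps26 and sym1, turn lower in sap1-1 when arrays are centred on the mode.

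**Figure D4:**
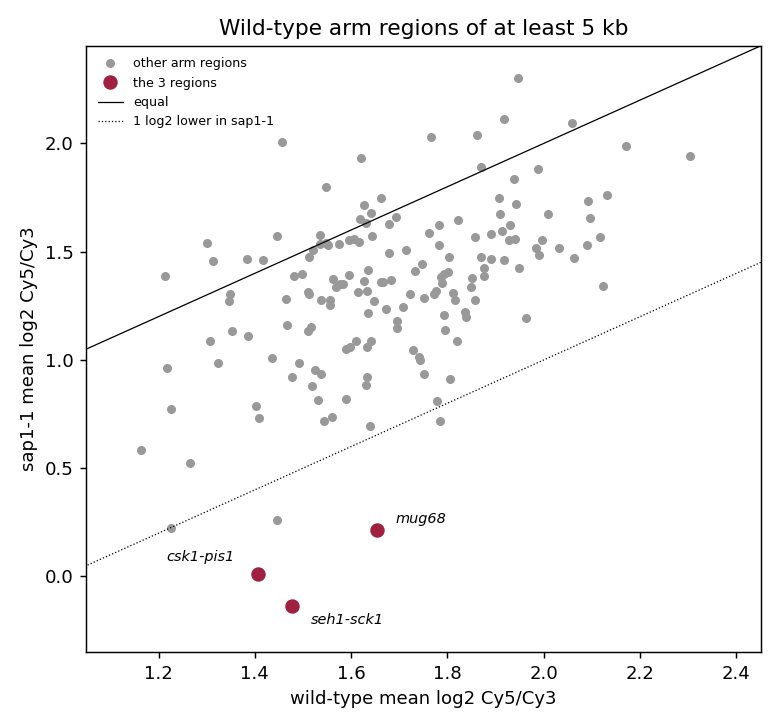
Mean log2 Cy5/Cy3 in sap1-1 against that in wild-type for 163 wild-type arm regions of at least 5 kb, 1 point each, with lines at equal values and at 1 log2 lower in sap1-1. The 3 regions (red) lie below the dotted line at sap1-1 means of 0.22, -0.14 and 0.01, under the median of 1.37.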

How the data were processed

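Immunoprecipitated (Cy5) and input (Cy3) DNA were measured on 2 arrays, 1 per strain. Spots were read with Agilent Feature Extraction (version 10.7.3.1), which subtracted background and scaled each dye linearly, per the file headers. The deposited processed, median and background signals are intensity values, and the log ratio column is deposited as log10 of Cy5 over Cy3, equal to the ratio recomputed here within 3.91e-07. The sources used here do not give a build for the tile coordinates.

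Of 41251 chromosome tiles, those among 12 outlier-marked spots were left out (41240 kept). Log2 ratios were centred on the array's median, with no loess or quantile step. Runs under 1 kb apart were merged into 1 region. Arm regions exclude the outer 100 kb of chromosomes, pericentromeres and the mating-type region. Genes came from ASM294v3, shifted to the tile numbering by matching GC content to input (offset -880 bp on this arm, correlation 0.58 over 12503 tiles), so places are good to about 1 tile. The number of arrays limits the precision.

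Windows, members and lists were chosen with earlier results of these data known. The named genes were the 9 members, the other genes of the windows by count and extremes, and the 3 genes nearest to mug68 over the 2 arrays. The gap sequences, the 2 kb bins, the 3 kb running mean and the neighbours within 150 kb were added after the data were seen. Scripts were tested on simulated data. Python 3.11.15, numpy 2.4.6, pandas 2.3.3, R 4.3.3 and limma 3.58.1 (normexp and loess alternatives) were used. Alternatives covered centring, scaling, background, GC, repeats, summary and region limits.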

Additional observations from a re-analysis of the deposited data

How the results depend on the processing

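No paired analysis was possible because each strain has 1 array. Under 13 alternatives each, the mug68 region stayed between -2.05 and -0.79, seh1-sck1 between -2.22 and -1.18 and csk1-pis1 between -2.05 and -0.71, so the 3 differences kept their direction. Centring on the mode gave -2.05, -2.22 and -2.00 and 32 genes lower by at least 1 in place of 19. It moves all values by the distance between mode and median, with modes at -0.51 in wild-type and 0.10 in sap1-1. Within-array loess gave -1.05 at mug68 and -0.92 at csk1-pis1, the latter under 2-fold, and -1.20 at seh1-sck1. A region threshold of 1.5 left 4 tiles at csk1-pis1 (-2.05). Means over whole windows, which take in tiles outside the regions, were -0.79 at mug68 and -0.71 at csk1-pis1. Over 10 alternatives the count of genes ran from 15 to 32. Of 90 values of the 9 genes, 82 stayed inside the 95% interval of the tile mean, 7 moved out of it and 1 turned sign (glm1, 0.24 with medians over 3 tiles). These limits come from tile scatter within 2 arrays, and what a second culture would give is not measured here.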

Other observations

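Not every place in the mug68 window was low in sap1-1. The first 2 kb of the window, over msa1 (an RNA-binding protein gene), averaged -0.87 in wild-type and -0.10 in sap1-1, with 0 of 6 tiles lower in sap1-1. There the input differed by -0.01. A 5 kb bin on the other side, 2350000 to 2354999 over med20 and ilv3, read -0.08 in wild-type and 0.03 in sap1-1.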
